A study of Mus musculus with 3 samples.

Results

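The 9 genes described here are 4 ligand and 5 receptor genes of the PDGF, VEGF, apelin and CXCL12 pathways, measured in the primary germ layers of the mouse embryo at E7.5. They are *Pdgfa*, *Pdgfb*, *Vegfa* and *Cxcl12* among the ligands, and *Pdgfra*, *Pdgfrb*, *Flt1*, *Aplnr* and *Cxcr4* among the receptors. The genes were taken by gene symbol from 17633 genes with at least 1 uniquely mapped read in any library, and the question was which germ layer holds each ligand and which holds its receptor. The study isolated endoderm, mesoderm and epiblast by enzyme treatment and micromanipulation from untreated embryos of ICR mice, an outbred strain, and made 1 sequencing library of each layer, in which the RNA of many embryos was pooled. The embryonic region was cut away from the rest of the embryo first, and the epiblast layer comprised neuroectoderm and primitive streak. All 3 groups share strain, stage and treatment, and each is a dissected tissue rather than a purified cell type.

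PDGF and VEGF are secreted dimers that activate receptor tyrosine kinases on neighbouring cells. Apelin and CXCL12 are short secreted proteins that activate G protein-coupled receptors. In the gastrulating embryo these pathways are known for the spread, survival and movement of newly formed mesoderm and for the first endothelial and blood precursors.

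The read counts summed to between 40.8 M and 42.7 M per library, and RPKM, the reads of a gene divided by its length and by the total of the library, was used as deposited. A gene was called differentially expressed between 2 germ layers by the study's criteria, namely RPKM>5 in 1 or both, Fold Change>2 and FDR<0.001 in an exact test of the read counts. Because every layer is represented by 1 library, no difference below has a replicate check within these sequencing data. The intervals given (95%, exact) cover the counting of reads only. The paper also reports qPCR of *Kdr* (as *Flk1*) and *Pdgfra* and a separate microarray of the layers, which were not used here. In a bulk library, fewer cells of a type and less RNA per cell cannot be told apart. RPKM ratios between different genes also rest on the listed length of each gene, and the intervals do not cover an error in it. By summed RPKM the libraries carried the markers of their labels. The sum of 5 mesoderm markers was 9.28 in endoderm, 379 in the mesoderm library, of which *Hand1* gave 222, and 119 in epiblast. That of 6 epiblast markers was 191, 219 and 1360.0. Singly, 4 of the 5 were highest in mesoderm and 5 of the 6 in epiblast. *Msgn1* had 35.1 RPKM in mesoderm and 38.9 in epiblast, and *Tbx6* had 38.7 and 34.1. The epiblast marker *Fgf5* had 6.64 RPKM in endoderm and 6.32 in epiblast. Definitive endoderm markers summed to 253 RPKM in the endoderm library, 56.1 in mesoderm and 5.13 in epiblast, with *Gsc* below 0.4 RPKM in every library. The endoderm library also held 5191 RPKM of 6 visceral endoderm markers, against 3.11 and 2.04 in the others. Trophoblast markers summed to 20.4, 7.54 and 2.52 RPKM, of which *Plac1* gave 19.9, 6.25 and 0.569, while *Prl3d1*, *Prl2c2* and *Tpbpa* had 0 reads. Decidua and primitive erythroid markers summed to between 0.678 and 4.44 RPKM in each library, with 2 of 5 and 3 of 6 genes at 0 reads. Parietal endoderm markers summed to 526, 267 and 164 RPKM. Of that list *Pth1r* had 38.8, 23.5 and 2.49 RPKM, and *Thbd* no more than 1.61.

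All 5 receptor genes had their highest RPKM in mesoderm, and none of the 4 ligand genes did. Among the 9135 genes that passed RPKM>5 somewhere, 37.1% were highest in endoderm, 30.3% in the mesoderm library and 32.6% in epiblast. *Vegfa* and *Pdgfb* were highest in endoderm, and *Cxcl12* and *Pdgfa* were highest in epiblast. The share of a gene's summed RPKM found in mesoderm was between 59.8% and 75.8% for the receptors and between 3.73% and 35.2% for the ligands. 8 of the 9 genes passed RPKM>5 in some library, and *Pdgfb* did not.

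**Figure D1:**
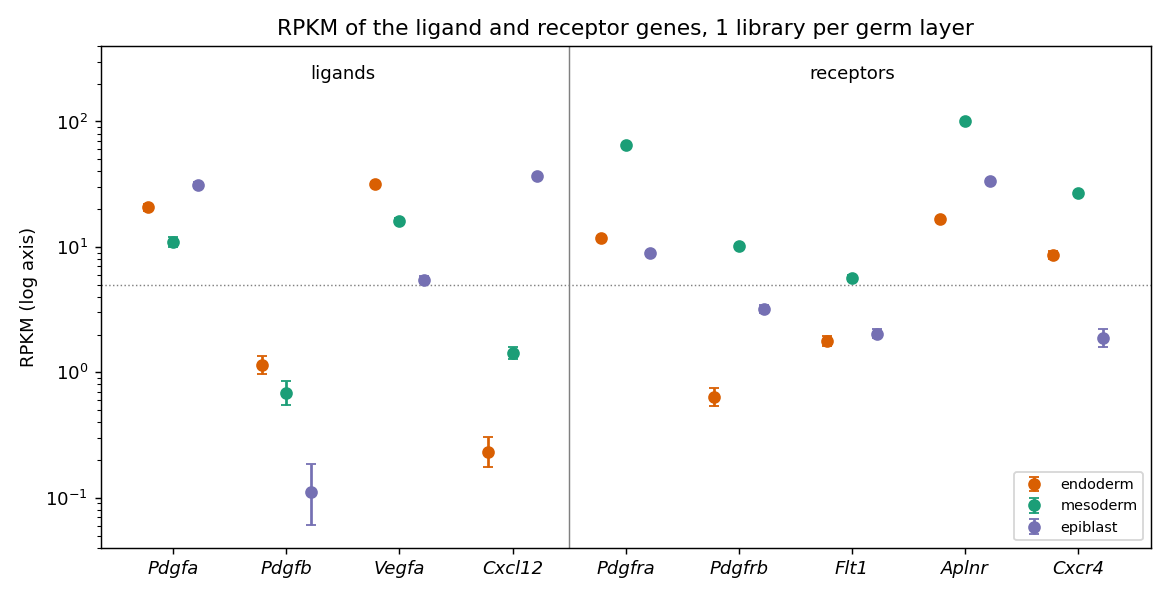
RPKM (log axis) of the 4 ligand and 5 receptor genes in the endoderm, mesoderm and epiblast libraries (points are the deposited RPKM of 1 library each, bars 95% exact intervals of the read count, and the dotted line RPKM 5). The mesoderm point is the top one for each receptor, from 5.65 RPKM for *Flt1* to 101 for *Aplnr*, and for no ligand.

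The sequences just upstream of 4 of these genes are shown because 3 of them are receptor genes that were high together in mesoderm and *Cxcl12* is the ligand gene with the strongest contrast between layers. They are the 250 bases before the RefSeq transcript start in GRCm38.p6, written 5′ to 3′ along the gene. The windows are chr5:147726012-147726261 (minus strand) for *Flt1*, chr1:128592300-128592549 (minus strand) for *Cxcr4*, chr5:75152001-75152250 (plus strand) for *Pdgfra* and chr6:117168285-117168534 (plus strand) for *Cxcl12*. An entry was at hand for 6 of the 9 genes. Capitals mark matches on either strand to any of 5 short motifs, namely the GC box GGGCGG, the TATA box TATAAA, the ETS motif CCGGAA, the GATA motif AGATAA and the hypoxia response motif ACGTG.
Flt1: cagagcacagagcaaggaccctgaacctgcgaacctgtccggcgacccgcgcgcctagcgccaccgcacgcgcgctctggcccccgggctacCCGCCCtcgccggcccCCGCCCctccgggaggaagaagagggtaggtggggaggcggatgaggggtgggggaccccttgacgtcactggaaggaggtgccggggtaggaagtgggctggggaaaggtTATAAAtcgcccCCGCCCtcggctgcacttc
Cxcr4: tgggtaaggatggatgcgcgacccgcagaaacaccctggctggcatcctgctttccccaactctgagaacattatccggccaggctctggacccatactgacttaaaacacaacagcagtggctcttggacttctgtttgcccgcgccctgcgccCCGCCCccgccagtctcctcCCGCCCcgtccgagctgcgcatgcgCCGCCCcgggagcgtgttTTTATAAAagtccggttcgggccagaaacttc
Pdgfra: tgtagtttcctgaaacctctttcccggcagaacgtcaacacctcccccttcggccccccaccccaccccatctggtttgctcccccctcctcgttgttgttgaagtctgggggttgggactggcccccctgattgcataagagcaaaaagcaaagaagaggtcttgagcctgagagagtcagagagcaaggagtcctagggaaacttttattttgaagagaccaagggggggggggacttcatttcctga
Cxcl12: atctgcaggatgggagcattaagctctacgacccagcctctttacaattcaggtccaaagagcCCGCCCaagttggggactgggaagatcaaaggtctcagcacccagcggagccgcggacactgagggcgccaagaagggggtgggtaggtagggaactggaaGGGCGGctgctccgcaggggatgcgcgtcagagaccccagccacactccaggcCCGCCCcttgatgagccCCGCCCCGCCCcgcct

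Among all 32851 RefSeq promoter windows of this length, 32.7% held a GC box, 12.4% a TATA box, 12.0% the ETS motif, 9.99% the GATA motif and 16.6% the hypoxia response motif. *Flt1* held 3 GC boxes and a TATA box whose first base lay at position -31 from the start. *Cxcr4* also held 3 GC boxes, and its TATA box, at position -30, overlapped a second match on the opposite strand at -32. *Cxcl12* held 5 GC boxes, at -187, -86, -33, -16 and -11, of which the last 2 overlap, and no TATA box. *Pdgfra* held none of the 5 motifs. The bases after its RefSeq start were not found in a GENCODE transcript, so this window may not lie before the start used here. The paper lists *Pdgfra* among genes whose alternative promoter events differed between the germ layers, and examined its first exons by qPCR. Which start each layer used was not tested here. G and C made up 70.4% of the *Flt1* window, 61.2% of *Cxcr4*, 64.4% of *Cxcl12* and 54.4% of *Pdgfra*, against a median of 52.4% over all windows. These matches are letters in a window, not binding sites.

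*Pdgfa* encodes the PDGF-A chain, a ligand of PDGF receptor alpha, and lies on chromosome 5 (138976014 to 138997370, minus strand, GRCm38). It had 881 reads in the endoderm library, 458 in mesoderm and 1346 in epiblast. In RPKM it stood at 20.8 (19.4 to 22.2) in endoderm, 11.0 (10.02 to 12.1) in the mesoderm library and 30.9 (29.3 to 32.6) in epiblast. The ligand was thus lowest in mesoderm, with epiblast 2.81-fold (2.53 to 3.13) higher than mesoderm, a difference that met the criteria. Endoderm exceeded mesoderm by 1.89-fold (1.68 to 2.12) and epiblast exceeded endoderm by 1.49-fold (1.37 to 1.62), both under the criterion of 2. After scaling by the median of ratios or by TMM, which moved every endoderm ratio by 0.11 on the log2 scale, *Pdgfa* was also called higher in endoderm than in mesoderm. An annotated gene on the opposite strand overlaps exons of *Pdgfa*, and whether the strand was used in counting is not stated, so its reads could include some of that gene.

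*Pdgfra* encodes PDGF receptor alpha, a receptor tyrosine kinase long used as a mark of early mesoderm, on the same chromosome (75152292 to 75198215, plus strand). Exons of 2 genes on the opposite strand overlap it as well. Its reads numbered 3244 in the endoderm library, 17538 in mesoderm and 2519 in epiblast. The RPKM was 11.9 (11.4 to 12.3), 65.3 (64.4 to 66.3) and 8.98 (8.63 to 9.34) in the same order, so that mesoderm held 75.8% of the sum. Mesoderm was 5.51-fold (5.31 to 5.72) above endoderm and 7.28-fold (6.98 to 7.59) above epiblast, and both differences met the criteria. Within mesoderm the receptor RPKM was 5.94 times (5.41 to 6.53) the ligand's. The order turned round in the other layers, where *Pdgfa* RPKM was 1.75 times (1.62 to 1.89) that of *Pdgfra* in endoderm and 3.45 times (3.22 to 3.68) in epiblast. Epiblast, with the most ligand, had 13.7% of the mesoderm level of the receptor, and mesoderm had 35.6% of the epiblast level of the ligand.

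*Pdgfb* encodes the PDGF-B chain, which recruits mural cells to vessels later in development, on chromosome 15 (79995874 to 80014977, minus strand), and was at low levels. It had 142 reads in endoderm, 83 in the mesoderm library and 14 in epiblast, which covered 72.2%, 59.5% and 22.3% of the gene. The RPKM was 1.15 (0.971 to 1.36), 0.687 (0.547 to 0.852) and 0.111 (0.0606 to 0.186). The gene could not be called at any ratio under the RPKM criterion. Endoderm was 10.4-fold (5.997 to 19.5) and mesoderm 6.20-fold (3.49 to 11.8) above epiblast in these counts.

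*Pdgfrb*, on chromosome 18 (61045150 to 61085061, plus strand), encodes PDGF receptor beta, the main receptor of the PDGF-B chain. It had 144 reads in the endoderm library, 2256 in mesoderm and 739 in epiblast. In RPKM it stood at 0.639 (0.539 to 0.752), 10.2 (9.79 to 10.6) and 3.20 (2.97 to 3.44), and mesoderm again held most of the sum, 72.7%. Mesoderm was 16.0-fold (13.5 to 19.0) above endoderm and 3.19-fold (2.94 to 3.47) above epiblast, both of which met the criteria. Unlike *Pdgfra*, which differed by 1.32-fold (1.25 to 1.39) between endoderm and epiblast with endoderm higher, *Pdgfrb* was 5.01-fold (4.18 to 6.03) higher in epiblast than in endoderm, with both libraries under RPKM 5. The RPKM of *Pdgfra* was 18.6 times (15.7 to 22.1) that of *Pdgfrb* in endoderm, 6.40 times (6.13 to 6.69) in mesoderm and 2.81 times (2.59 to 3.05) in epiblast.

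The other PDGF genes were at low levels. *Pdgfc*, a second ligand of the alpha receptor, had 0.622, 1.04 and 0.967 RPKM in endoderm, mesoderm and epiblast. *Pdgfd*, a ligand of the beta receptor, had 2.11, 1.15 and 0.913 RPKM. *Pdgfrl*, which encodes a secreted protein resembling the PDGF receptors, had 1.38, 0.428 and 1.62 RPKM and was the only receptor-like gene examined that was lowest in mesoderm. Among the 4 PDGF ligand genes *Pdgfa* therefore had the highest RPKM in each of the 3 libraries.

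*Vegfa*, on chromosome 17 (46016993 to 46032369, minus strand), encodes the VEGF ligand that the first vessels depend on. It had 4713 reads in endoderm, 2344 in the mesoderm library and 832 in epiblast. The RPKM stepped down from 31.9 (31.0 to 32.8) in endoderm to 16.2 (15.5 to 16.8) in mesoderm and 5.49 (5.13 to 5.88) in epiblast. Endoderm was 5.81-fold (5.39 to 6.26) and mesoderm 2.95-fold (2.72 to 3.19) above epiblast, and both met the criteria. Between endoderm and mesoderm the ratio was 1.97 (1.88 to 2.07), just under the criterion, and it passed after scaling by the median of ratios or by TMM. *Vegfa* was the member with the highest RPKM in the endoderm library. The definitive, visceral and parietal endoderm and trophoblast marker sums given above were highest there as well. By single markers this held for 5 of 6 definitive, 6 of 6 visceral and 5 of 8 parietal endoderm markers. It held for 2 of the 4 trophoblast markers with reads, the other 2 being highest in epiblast. Whether any of these cell types contributed to this level was not tested.

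*Flt1* encodes VEGF receptor 1, which binds VEGF-A tightly and is known mainly as a sink for it, and lies on chromosome 5 (147561604 to 147726011, minus strand). Its reads were 462 in the endoderm library, 1449 in mesoderm and 546 in epiblast, or 1.77 (1.61 to 1.93), 5.65 (5.36 to 5.95) and 2.04 (1.87 to 2.21) RPKM. Only the mesoderm library lay above RPKM 5. Mesoderm was 3.20-fold (2.88 to 3.56) above endoderm and 2.77-fold (2.51 to 3.07) above epiblast, both of which met the criteria. Endoderm and epiblast differed by 1.15-fold (1.02 to 1.31).

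*Kdr* encodes VEGF receptor 2, also called Flk1, the main signalling receptor of VEGF-A, and showed a much steeper contrast than *Flt1*. It had 62 reads in endoderm, 9100 in the mesoderm library and 180 in epiblast, or 0.272, 40.8 and 0.771 RPKM. Mesoderm was 149.7-fold (117 to 195) above endoderm and 52.9-fold (45.6 to 61.6) above epiblast, and both met the criteria. Which of the VEGF-A receptors had the higher RPKM, at the listed gene lengths, therefore depended on the layer. *Kdr* RPKM was 7.22 times (6.83 to 7.63) that of *Flt1* in mesoderm, while *Flt1* RPKM was 6.48 times (4.97 to 8.59) that of *Kdr* in endoderm and 2.64 times (2.23 to 3.14) in epiblast.

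The neuropilins are co-receptors that present VEGF to these kinases. *Nrp1* had 11.6 RPKM in the endoderm library, 24.2 in mesoderm and 0.368 in epiblast. Epiblast, the layer with the least *Vegfa*, had 93 reads of it. Mesoderm was 65.8-fold (53.6 to 81.6) and endoderm 31.6-fold (25.7 to 39.2) above epiblast, and both met the criteria. The 2.08-fold (1.99 to 2.18) excess of mesoderm over endoderm also met them, but not after scaling by the median of ratios or by TMM, with a pseudocount of 1 or at an assumed coefficient of variation of 0.2. *Nrp2* had 10.2, 18.1 and 7.78 RPKM, with mesoderm 2.33-fold (2.21 to 2.45) above epiblast. *Flt4*, which encodes VEGF receptor 3 of the lymphatic pathway, had 0.398, 2.80 and 0.824 RPKM and stayed under RPKM 5 in all libraries.

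Of the other VEGF ligands, *Vegfb*, which binds VEGF receptor 1, was at 33.0 RPKM in endoderm, 42.0 in the mesoderm library and 41.3 in epiblast and differed by at most 1.28-fold (1.20 to 1.36). *Vegfa* and *Vegfb* stood at similar RPKM in endoderm, with a ratio of *Vegfb* to *Vegfa* of 1.03 (0.978 to 1.09), but that ratio was 2.60 (2.45 to 2.75) in mesoderm and 7.52 (6.95 to 8.16) in epiblast. *Pgf*, another ligand of VEGF receptor 1, had 6, 125 and 31 reads, or 0.0860, 1.83 and 0.434 RPKM. *Vegfc*, a ligand of VEGF receptor 3, had 5, 163 and 46 reads, or 0.0638, 2.12 and 0.573 RPKM. *Vegfd*, of the same kind, had 0.165, 0.557 and 0.458 RPKM. The ligand genes *Pgf* and *Vegfc* thus had their highest RPKM in mesoderm, the layer of their receptors, at low levels, while *Vegfd* did not differ between mesoderm and epiblast beyond counting error.

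Of the 10 markers of endothelial and blood progenitors, cells that arise from mesoderm and use VEGF receptors, 9 were highest in mesoderm like *Flt1* and *Kdr*. The 10 markers summed to 12.1 RPKM in the endoderm library, 90.5 in mesoderm and 8.21 in epiblast. Between endoderm and epiblast this sum was higher in endoderm, unlike *Flt1* and *Kdr*. *Gata2* had 6.01 RPKM in endoderm, 7.93 in mesoderm and 1.71 in epiblast. *Etv2*, a factor that starts the endothelial programme, had 0.457, 47.2 and 2.16 RPKM, and *Tal1*, a factor of the first blood cells, had 0.104, 13.3 and 0.214. *Runx1*, the exception, had 3.65, 0.535 and 0.115 RPKM, and *Cdh5*, which encodes an endothelial junction protein, had no more than 1.27. The part of these cells in the receptor levels was not tested.

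*Aplnr*, on chromosome 2 (85136225 to 85139923, plus strand), encodes the apelin receptor, which is known for the movement of early mesoderm and heart precursors. It had 2467 reads in endoderm, 14812 in the mesoderm library and 5149 in epiblast. The RPKM of 16.6 (15.9 to 17.2), 101 (99.9 to 103) and 33.7 (32.8 to 34.7) made it the receptor gene with the highest level of those examined in each library. Mesoderm was 6.12-fold (5.87 to 6.39) above endoderm and 3.01-fold (2.91 to 3.10) above epiblast. Epiblast was 2.04-fold (1.94 to 2.14) above endoderm, so that *Aplnr* met the criteria in all 3 comparisons. The last call was lost with a pseudocount of 1, after scaling by the median of ratios or by TMM, and in edgeR's exact test at an assumed coefficient of variation of 0.2.

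Both ligand genes of this receptor were lowest where the receptor was highest. *Apln*, which encodes apelin, had 2800, 216 and 4793 reads, or 21.4 (20.6 to 22.2) RPKM in the endoderm library, 1.68 (1.46 to 1.92) in mesoderm and 35.7 (34.7 to 36.7) in epiblast. Epiblast was 21.2-fold (18.5 to 24.4) and endoderm 12.7-fold (11.1 to 14.7) above mesoderm, and both met the criteria. *Apela*, which encodes the second ligand, ELABELA, had 3704, 431 and 1267 reads, or 89.8 (87.0 to 92.8), 10.7 (9.67 to 11.7) and 30.0 (28.3 to 31.7) RPKM. Endoderm was 8.43-fold (7.63 to 9.33) above mesoderm and 2.997-fold (2.81 to 3.20) above epiblast. Epiblast was 2.81-fold (2.52 to 3.14) above mesoderm, and all of these differences met the criteria. At an assumed coefficient of variation of 0.2 in edgeR, *Apela* lost its calls in both comparisons with epiblast. At 0.4 the calls of *Apela* and *Apln* between endoderm and mesoderm were lost as well. *Apela* was the higher of the ligands in endoderm, by 4.21 times (4.004 to 4.42), and in mesoderm, by 6.34 times (5.38 to 7.51), whereas *Apln* was 1.19 times (1.12 to 1.27) *Apela* in epiblast. *Apela* shares exon sequence with another annotated gene on its strand, so its counts are uncertain to that extent.

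*Cxcl12*, on chromosome 6 (117168535 to 117181367, plus strand), encodes a chemokine that attracts migrating cells, and had the strongest contrast of the 9 genes. It had 55 reads in endoderm, 329 in the mesoderm library and 8822 in epiblast, which covered 36%, 77.3% and 99.1% of the gene. The RPKM was 0.233 (0.175 to 0.303), 1.42 (1.27 to 1.58) and 36.4 (35.7 to 37.2), with 95.7% of the sum in epiblast. Epiblast was 156-fold (120.1 to 208) above endoderm and 25.6-fold (23.0 to 28.7) above mesoderm, and both met the criteria. The 6.10-fold (4.57 to 8.27) excess of mesoderm over endoderm lay at RPKM below 5. In the epiblast library *Cxcl12* was first in RPKM among the 9 genes, and in the endoderm library it was last.

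*Cxcr4* encodes the CXCL12 receptor, on chromosome 1 (128588199 to 128592293, minus strand), and is a known mark of definitive endoderm and of migrating mesoderm. It had 655 reads in the endoderm library, 2004 in mesoderm and 147 in epiblast, or 8.64 (7.99 to 9.32), 26.9 (25.8 to 28.1) and 1.89 (1.60 to 2.22) RPKM. Mesoderm was 3.12-fold (2.85 to 3.41) above endoderm and 14.3-fold (12.0 to 17.0) above epiblast, and endoderm was 4.57-fold (3.81 to 5.50) above epiblast. All 3 comparisons met the criteria, the last of them not with RPKM>10 in place of RPKM>5. The gene with the higher RPKM of the pair changed with the layer. *Cxcl12* RPKM was 19.3 times (16.4 to 22.8) that of *Cxcr4* in epiblast, while *Cxcr4* RPKM was 19.0 times (16.9 to 21.4) that of *Cxcl12* in mesoderm and 37.1 times (28.1 to 49.8) in endoderm. Mesoderm had 3.90% of the epiblast level of the ligand, and epiblast had 7.02% of the mesoderm level of the receptor. *Ackr3*, whose product scavenges CXCL12, followed *Cxcr4* in its order at lower levels, with 2.24, 3.82 and 1.16 RPKM.

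Ligand and receptor genes were then set side by side in 17 known pairs. In 11 of them the ligand and the receptor had their highest RPKM in different germ layers, and so they did in each of the 5 pairs formed by the 9 genes. The receptor was highest in mesoderm in all 17, while the ligand was highest in endoderm in 7, in mesoderm in 6 and in epiblast in 4. Since every receptor here was highest in mesoderm, the 11 count the ligands that were not, and 69.7% of all genes with RPKM>5 were highest in another layer than mesoderm, so the share of pairs is near that of all genes. These counts share genes, since *Flt1*, for example, enters with 3 ligands. With RPKM>1 required of both genes, 11 of 16 pairs had their highest levels in different layers. The 6 pairs with both in mesoderm were those of *Pdgfc*, *Vegfb*, *Pgf*, *Vegfc* (2 receptors) and *Vegfd*. For 3 of these ligands mesoderm and epiblast did not differ beyond counting error, with mesoderm to epiblast ratios of 1.07 (0.849 to 1.36) for *Pdgfc*, 1.02 (0.959 to 1.08) for *Vegfb* and 1.21 (0.765 to 1.94) for *Vegfd*. Scaling to the same upper quartile gave 12 pairs in place of 11. Of the 11 receptor genes examined in all, 10 were highest in mesoderm, and *Pdgfrl*, highest in epiblast, has no pair.

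**Figure D2:**
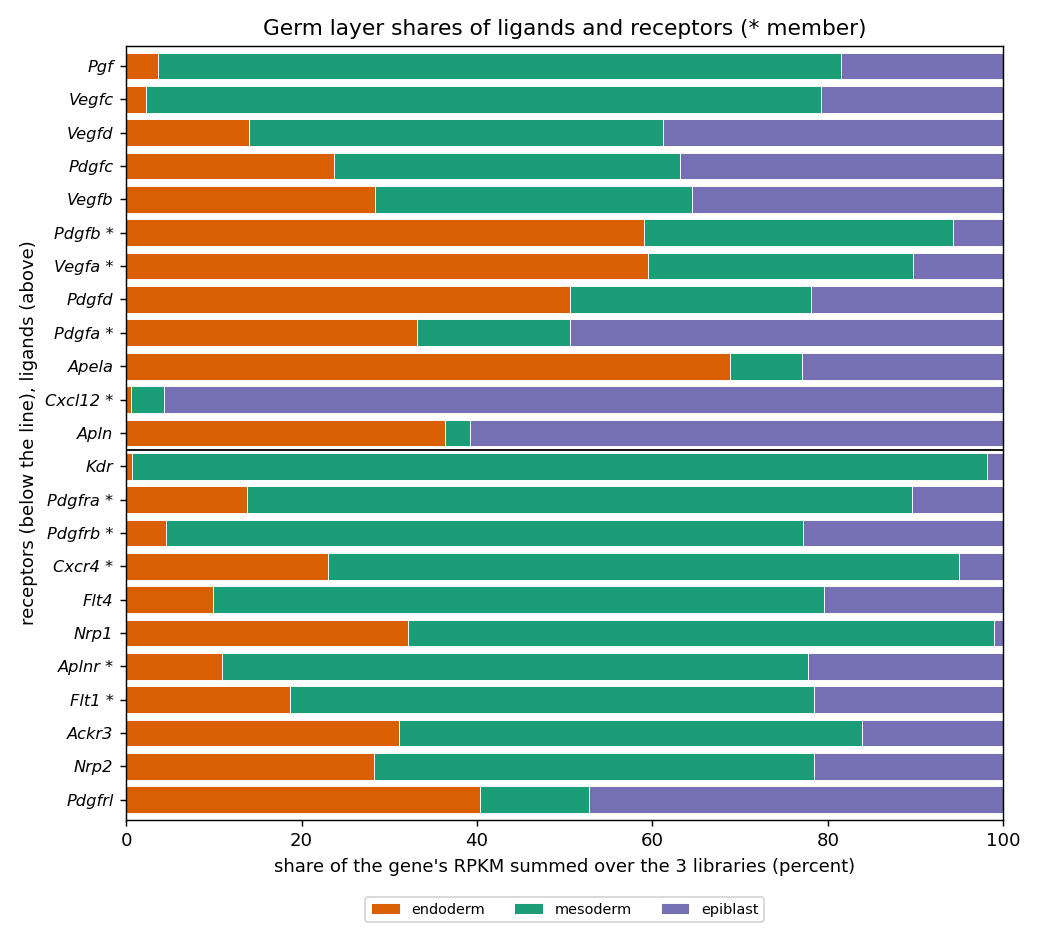
Share of each gene's RPKM, summed over the 3 libraries, that was found in endoderm, mesoderm and epiblast (percent), for 12 ligand genes above the line and 11 receptor genes below it (asterisks mark the 9 genes described first). Mesoderm takes 97.5% for *Kdr* and 75.8% for *Pdgfra* but 3.73% for *Cxcl12* and 2.86% for *Apln*.

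Between endoderm and mesoderm, 5 of the 7 genes with RPKM>5 were differentially expressed. These were the 5 receptor genes, all higher in mesoderm, and no ligand gene was called with these criteria and the deposited scaling. At an assumed coefficient of variation of 0.4 in edgeR, 1 of the calls held, that of *Pdgfrb*. Over all 8867 genes with RPKM>5 in that comparison, 8.56% were called higher in mesoderm and 14.4% higher in endoderm. The median log2 ratio of endoderm over mesoderm was -1.68 for the 9 genes, -2.46 for the receptors and 0.83 for the ligands, beside -0.10 for all genes. Among the 14 other ligand and receptor genes 6 had RPKM>5, and 4 of these were called. Of the 4, *Apln* and *Apela* were higher in endoderm and *Kdr* and *Nrp1* in mesoderm.

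Mesoderm and epiblast differed in all 8 of the genes with RPKM>5. The 5 receptors and *Vegfa* were higher in mesoderm, and *Pdgfa* and *Cxcl12* in epiblast. In edgeR's exact test, 3 of these calls (*Cxcl12*, *Pdgfra* and *Cxcr4*) held at an assumed coefficient of variation of 0.2, and 1 at 0.4. Of all 8340 genes with RPKM>5 there, 5.3% were called higher in mesoderm and 5.02% higher in epiblast. The median log2 ratio of mesoderm over epiblast was 1.59 for the 9 genes and 0.02 for all genes. Of the 6 other ligand and receptor genes with RPKM>5, 5 were called. *Kdr*, *Nrp1* and *Nrp2* were higher in mesoderm and *Apln* and *Apela* in epiblast.

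Endoderm and epiblast, the layers in which the 4 ligands among the 9 genes were highest, differed in 4 of the 6 genes with RPKM>5. *Vegfa* and *Cxcr4* were higher in endoderm, and *Cxcl12* and *Aplnr* in epiblast, and at a coefficient of 0.4 *Cxcl12* alone was called. Over all 8843 genes 15.7% were called higher in endoderm and 8.94% higher in epiblast. On the log2 scale the median endoderm to epiblast ratio was -0.21 for the 9 genes and -0.08 for all genes. Of the 5 other ligand and receptor genes with RPKM>5, 2 were called, *Apela* and *Nrp1*, both higher in endoderm. The comparisons share libraries and are not independent of each other.

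**Figure D3:**
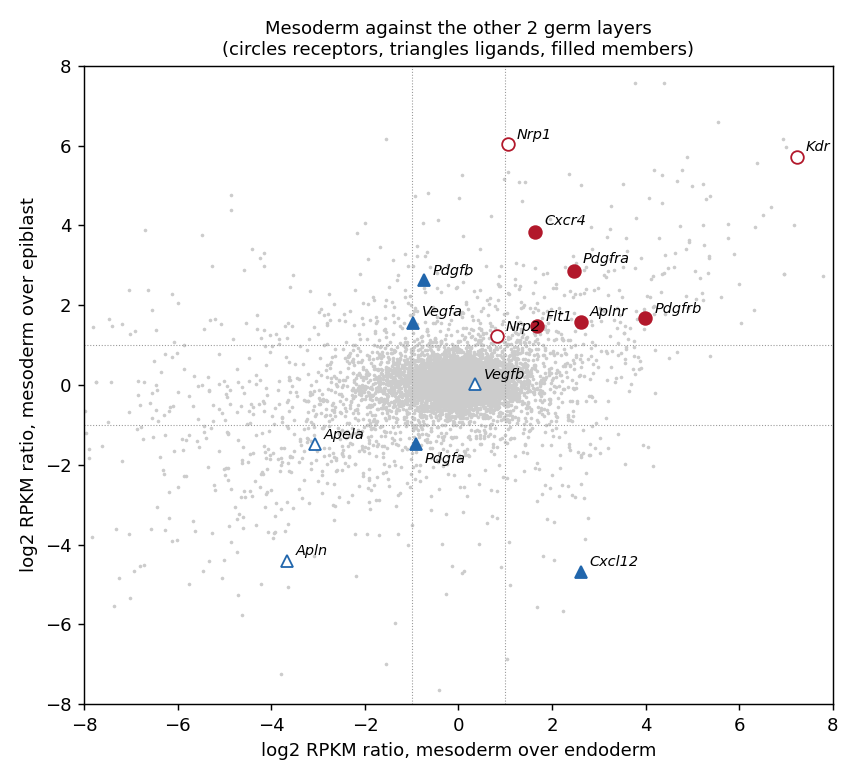
Log2 RPKM ratio of mesoderm over endoderm (x axis) and of mesoderm over epiblast (y axis) for the 9054 genes within the axes that had RPKM>5 in a library and reads in all 3 (grey), with receptors as circles and ligands as triangles, filled for the 9 genes and open for others with RPKM>5 (*Pdgfb*, under RPKM 5, is drawn too). Dotted lines mark a Fold Change of 2, the axes share the mesoderm library, and the filled circles all lie in the upper right, where mesoderm exceeds both other layers.

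Genes for proteins that carry these signals inside the cell or shape the ligands outside it were described next. Of 33 such genes for adaptors, G proteins, arrestins, proteases and oxygen sensing, 7 met the criteria in at least 1 comparison. Between endoderm and mesoderm 7 of 27 with RPKM>5 were called, 4 of them higher in endoderm and 3 in mesoderm, beside 23% of all genes. Between endoderm and epiblast 6 of 26 were called, 4 higher in endoderm and 2 in epiblast, beside 24.6%. Between mesoderm and epiblast 3 of 26 were called, all higher in mesoderm, beside 10.3%. Each count is near the share of all genes. Their median log2 ratios were -0.17, 0.09 and 0.13 in these comparisons.

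Among the adaptors and enzymes of receptor tyrosine kinases, *Gab1*, a docking protein, was the 1 gene of 11 that was called. It had 34.2 RPKM in endoderm, 11.6 in the mesoderm library and 4.61 in epiblast, which is the order of *Vegfa* and not that of the receptors. *Grb2* and *Ptpn11*, which encode the adaptor and phosphatase that bind such docking proteins, had 30.5, 34.8 and 32.1 RPKM and 29.7, 34.3 and 31.4 RPKM. Of 7 G protein and arrestin genes, *Arrb1*, which encodes an arrestin that quiets G protein-coupled receptors, was called. Its 3.19, 28.7 and 26.4 RPKM put mesoderm 8.98-fold (8.40 to 9.62) and epiblast 8.27-fold (7.73 to 8.85) above endoderm. *Gnai2*, which encodes an inhibitory G protein subunit, had 219, 161 and 251 RPKM and was not called.

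Of the 8 genes for ligand processing, 4 had RPKM>5 in a library and were called in at least 1 comparison, as were 31.5% of all genes with RPKM>5 in a library. *Dpp4*, which encodes a protease known to inactivate CXCL12, had 81.9 RPKM in the endoderm library, 0.1998 in mesoderm and 0.204 in epiblast. Endoderm was 409.9-fold (304 to 567) above mesoderm and 401-fold (300.2 to 547) above epiblast. *Dpp4* was thus high in the layer with the least *Cxcl12*, and the visceral endoderm markers were high in the same library. Their part in this level was not tested. *Pcsk5*, which encodes a proprotein convertase, had 0.291, 7.46 and 0.214 RPKM, with mesoderm 25.6-fold (20.5 to 32.4) above endoderm and 34.8-fold (27.0 to 45.7) above epiblast. *Furin*, which encodes another convertase, had 45.1, 17.5 and 12.1 RPKM. *Plat*, whose product tPA can activate PDGF-C, had 13.1, 5.95 and 1.14 RPKM, with endoderm above mesoderm by 2.20-fold (1.999 to 2.42) and above epiblast by 11.5-fold (9.54 to 13.9). Of 7 oxygen sensing genes *Egln3*, which encodes a prolyl hydroxylase acting on hypoxia-inducible factor, was called, with 4.35, 14.9 and 14.5 RPKM. *Hif1a*, which encodes the factor that raises *Vegfa* in low oxygen, had 47.1, 55.8 and 49.9 RPKM and was not called.

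**Figure D4:**
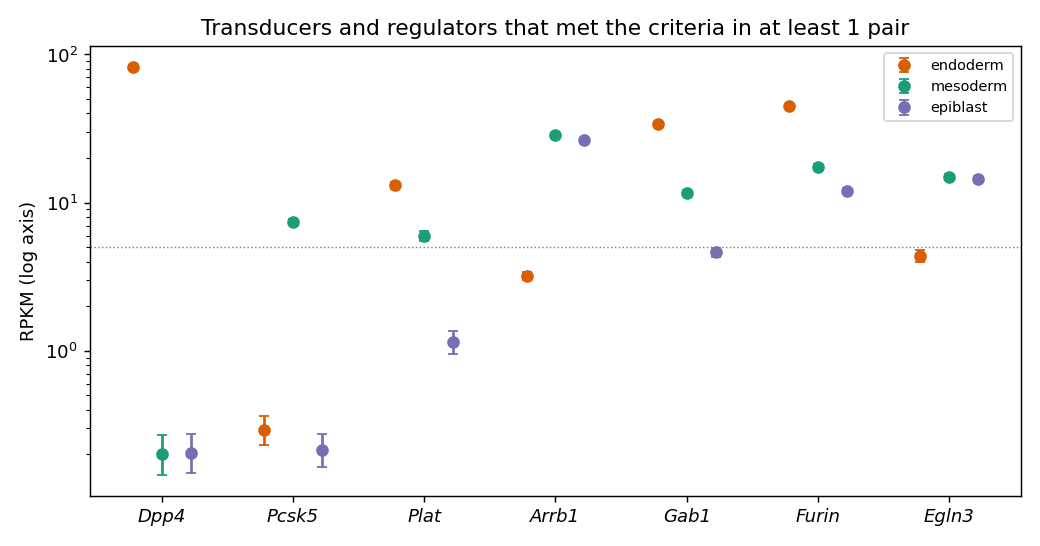
RPKM (log axis) in the 3 libraries of the 7 transducers and regulators that met the criteria in at least 1 comparison (points are the deposited RPKM of 1 library each, bars 95% exact intervals of the read count, and the dotted line RPKM 5). *Dpp4*, *Plat*, *Gab1* and *Furin* are highest in endoderm, and *Pcsk5* is above RPKM 5 in mesoderm only.

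Within a library the 9 genes fell into different orders. In endoderm the ligands *Vegfa* and *Pdgfa* came first and second, followed by *Aplnr*, *Pdgfra* and *Cxcr4*. In mesoderm the receptors *Aplnr*, *Pdgfra* and *Cxcr4* held the first 3 places. In epiblast *Cxcl12* was followed by *Aplnr* and *Pdgfa*. The counting intervals of neighbours in these orders overlapped in 2 cases, *Pdgfa* with *Pdgfrb* in mesoderm and *Flt1* with *Cxcr4* in epiblast.

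Genes outside the pathways with the most similar pattern were sought for the 8 genes with RPKM>5, by the Euclidean distance of centred log2(RPKM + 1) values over 3 libraries among 9060 genes. The nearest to *Pdgfra* were *Rasgrp3*, at a distance of 0.07, and *Hapln1*, at 0.13. *Pdgfrb* was nearest to the trunk patterning genes *Hoxb3* (0.05) and *Cdx4* (0.07), *Aplnr* to *Nexn* (0.04) and *Ncam1* (0.08), and *Flt1* to *Myadm* (0.04) and *Mrps6* (0.05). *Cxcr4* had less close neighbours, *Col23a1* (0.28) and *Fbn2* (0.40). For the ligands they were *B3gnt7* (0.08) and *Igsf8* (0.08) for *Pdgfa*, *Slc25a4* (0.07) and *Man1a* (0.11) for *Vegfa*, and *2900011O08Rik* (0.38) and *Slc7a3* (0.49) for *Cxcl12*. The number of genes within a distance of 0.5 was 201 for *Flt1* and 107 for *Pdgfa* but 5 for *Cxcr4* and 2 for *Cxcl12*, which makes the last pair the least shared patterns of the set. Adding 1 flattens ratios between values below 1, so a small distance does not mean an equal fold. *Hoxb3* had 0.0850 and 6.78 RPKM in endoderm and mesoderm and *Cdx4* was listed at 0 in endoderm, against 0.639 and 10.2 for *Pdgfrb*. With 3 libraries such likeness describes these libraries alone.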

How the data were processed

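The authors sequenced 1 paired-end Illumina library per germ layer and removed adapters and low-quality reads. The deposited tables list, per gene, an unnormalized count of uniquely mapped reads, a length, and the percent of that length covered. The RPKM deposited by the authors equals that count divided by the length and by the reads counted on genes, 41.7 M for endoderm, 40.8 M for mesoderm and 42.7 M for epiblast. TopHat, mm10 and mm9 stand in the submitters' processing notes, and the study names TopHat and mm10 for its splicing analysis. The aligner, annotation and strand setting of the gene tables are not given in the sources used here.

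RPKM was used as deposited, and genes missing from a table were set to 0 reads, a count that allows up to 3. For each pair of libraries the FDR came from a two-sided exact Audic and Claverie test of the counts with Benjamini-Hochberg adjustment over all genes with a read in either. That test compares the reads of 2 libraries, not conditions, so no p-value is printed. Intervals are exact (Poisson for RPKM, Clopper-Pearson for ratios) and cover counting error only. A replicate-based edgeR fit was not possible, and the exact test of edgeR with a biological coefficient of variation assumed at 0.2 or 0.4 was an alternative. The others were RPKM>1, RPKM>10 or no RPKM criterion, Fold Change>4, a pseudocount of 1, scaling by TMM, median of ratios or upper quartile, and Benjamini-Yekutieli adjustment.

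The genes, pairs and gene lists were chosen with earlier results of these data known. Named genes were the 9 genes, all 14 other ligands and receptors, up to 8 of 33 transducers and regulators that met the criteria with the largest folds, the listed markers, and for each of the 9 with RPKM>5 the 2 genes outside the lists with the nearest pattern. *Grb2*, *Ptpn11*, *Gnai2* and *Hif1a* were added after their values were seen. Of 115 listed genes 107 had reads, 5 of them under older symbols. Positions are from GENCODE M21 (GRCm38) and promoter windows from RefSeq (GRCm38.p6). The tools were edgeR 4.0.16 under R 4.3.3, and SciPy 1.17.1, numpy 2.4.6, pandas 2.3.3 and matplotlib 3.10.9 under Python 3.11.15.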

Additional observations from a re-analysis of the deposited data

How the results depend on the processing

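No paired analysis was possible because each germ layer has 1 library, and no replicate could be left out. Counts are given in the order endoderm against mesoderm, endoderm against epiblast and mesoderm against epiblast. RPKM>5 was met by 7, 6 and 8 of the 9 genes and 6, 5 and 6 of the 14 other ligands and receptors. Of the 33 transducers and regulators 27, 26 and 26 met it. The calls in these lists were 5, 4 and 8, then 4, 2 and 5, then 7, 6 and 3. With edgeR's exact test and an assumed coefficient of variation of 0.4 these became 1, 1 and 1, then 1, 1 and 3, then 2, 1 and 1; *Pdgfrb* was left in the first comparison of the 9 genes and *Cxcl12* in the others. With a coefficient of 0.2, the 9 genes kept 3 calls between mesoderm and epiblast (*Cxcl12*, *Pdgfra*, *Cxcr4*) and lost *Aplnr* between endoderm and epiblast, the other ligands and receptors 1 and 3 calls in the comparisons of endoderm and of mesoderm with epiblast, and the transducers 4 between endoderm and mesoderm. Fold Change>4 left 3 calls of the 9 genes between endoderm and mesoderm and 3 between mesoderm and epiblast, 1 and 3 of the other ligands and receptors in the comparisons with epiblast, and 3 transducers between endoderm and mesoderm. With RPKM>1, 8 other ligands and receptors were called between endoderm and mesoderm and 10 between mesoderm and epiblast, and 5 transducers in the latter; without an RPKM criterion the counts were 9, 7 and 10 of the other ligands and receptors and 6 transducers between mesoderm and epiblast. RPKM>10 left 1 transducer between mesoderm and epiblast, where *Pcsk5* and *Plat* were lost. It also removed the calls of *Flt1*, of *Cxcr4* between endoderm and epiblast, and of *Pcsk5* between endoderm and mesoderm. The stricter fold and the assumed spread remove calls by their construction. The log2 ratios of the 9 genes kept their direction under all 3 scalings, 75 of 81 with the same call, 4 newly called (*Pdgfa* and *Vegfa* higher in endoderm than in mesoderm) and 2 lost (*Aplnr* between endoderm and epiblast). The layer with the highest RPKM of ligand and receptor differed in 11 of 17 pairs, in 11 of 16 with RPKM>1, and in 12 of 17 with upper quartile scaling, where *Vegfb* is nearly level between mesoderm and epiblast. Among other genes, *Pdgfb*, *Pgf*, *Vegfc* and *Vegfd* had few reads in at least 1 library, which limits their ratios. With 1 library per layer, differences between embryos or dissections were not measured in these data.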
